A study of Mus musculus with 10 samples.

Results

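Complex I, the NADH:ubiquinone oxidoreductase, is the entry point of the mitochondrial respiratory chain. It takes electrons from NADH through a flavin and a chain of iron-sulphur clusters, passes them to ubiquinone and pumps protons across the inner membrane. Its peripheral arm holds the N module, where NADH is oxidised, and the Q module, where ubiquinone is reduced, while the membrane arm has a proximal and a distal part. In the kidney the complex is best known for fuelling ion transport in tubule cells, which are rich in mitochondria, whereas glomerular cells hold fewer of them.

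The members were all rows of the normalized count table whose gene symbol starts with Nduf, the prefix of nuclear genes named for this enzyme. There were 44 such rows of 12934. Of these, 35 encode subunits and 7 encode assembly factors (Ndufaf). The remaining pair are Ndufa4, a protein now counted as a subunit of complex IV, and Ndufa4l2, its relative, and both are given apart. The symbols Ndufs5, Ndufaf8, Ndufa11b, Ndufb4c, Ndufs6b, Ndufb1-ps and Ndufab1-ps and the mitochondrially encoded subunits are not analysed here. Values of Ndufb4, Ndufa11, Ndufs6 and Ndufab1 are uncertain, because each has a near-identical gene copy or pseudogene and the counting of shared reads is not given in the sources used here.

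RNA was sequenced from isolated glomeruli, the filtering tufts of the kidney, of wildtype mice of the inbred strain DBA/2J, which is prone to diabetic kidney disease, at 17 weeks of age. Diabetic Esm-1 mice (n = 3 libraries) had a hydrodynamic injection at 7 weeks with a plasmid for mouse Esm-1, a proteoglycan secreted by endothelial cells, together with the Sleeping Beauty transposase. Diabetic saline mice (n = 4) and non-diabetic saline mice (n = 3) had saline by the same route. At 8 weeks both diabetic groups received streptozotocin, which destroys the insulin-making beta cells, and non-diabetic mice its vehicle; after 4 weeks the diabetic mice went onto a 60% high-fat diet for 5 weeks. Diabetes and diet therefore cannot be told apart, nor can Esm-1 and the plasmid, and no non-diabetic group received Esm-1. Libraries are numbered within each group in record order. The labels name neither the promoter that drives the plasmid nor whether a library is 1 animal, so p-values measure the spread between these libraries, which may be technical.

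The libraries held 3931712 to 11300629 reads over the listed genes, of which Rn45s, Lars2 and Mir6236 took 91.1% to 92.8%, leaving 338549 to 962321 reads for all other genes. A single read was worth 0.619 to 1.77 normalized counts, and subunits past the filter had 1 to 245 reads per library. Diabetic saline library 4 was the shallowest library, and it and non-diabetic saline library 3 carry title numbers under 100 while the other 8 libraries do not. Esm1 itself was at or near the limit of detection in glomeruli, with 6.51, 3.81 and 0 normalized counts in diabetic Esm-1, 3.20, 0.925, 1.72 and 1.77 in diabetic saline and 2.48, 1.81 and 0 in non-diabetic saline libraries. Glomerular cell markers were present, with all 20 podocyte, 19 of 20 endothelial and 14 of 15 mesangial markers past the filter. Tubular transcripts were present too. Slc12a3 (the sodium chloride cotransporter of the distal convoluted tubule) had 875 to 2540, 986 to 1706 and 88.0 to 543 normalized counts in the same order of groups. Aqp2 of the collecting duct was also higher in both diabetic groups, at 642 to 687 and 648 to 1145 against 364 to 562. Umod of the thick ascending limb (539 to 954, 339 to 887 and 471 to 1300) overlapped between all groups. So did Lrp2 of the proximal tubule (198 to 402, 104 to 239 and 115 to 409).

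Subunit transcripts were more abundant in both diabetic groups than in the non-diabetic group. Summed over the 35 subunits, diabetic Esm-1 libraries held 1401, 1863 and 2020 normalized counts, diabetic saline libraries 1554, 1475, 1513 and 1452, and non-diabetic saline libraries 931, 906 and 886. Every diabetic library lay above every non-diabetic library, and both diabetic groups overlapped each other. The mean log2 level over the 34 subunits past the filter was 5.44 ± 0.25 in diabetic Esm-1 (SD, n = 3), 5.22 ± 0.09 in diabetic saline (n = 4) and 4.52 ± 0.06 in non-diabetic saline (n = 3). In whole glomerular preparations, a changed share of a cell type and a changed amount of RNA per cell cannot be told apart, in either direction.

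**Figure D1:**
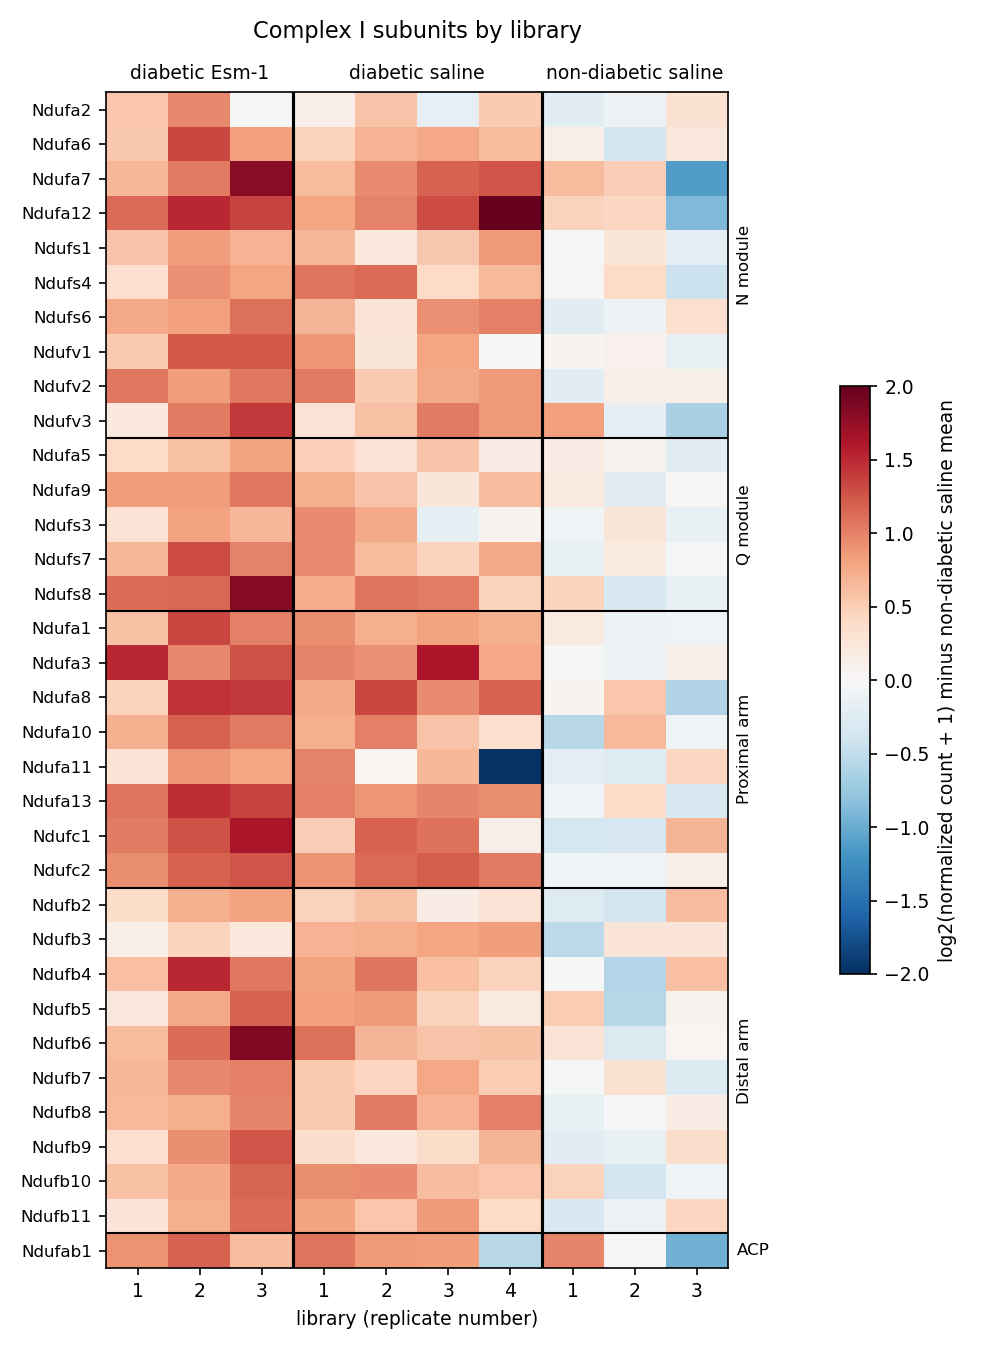
Colour gives each subunit's log2(normalized count + 1) in each library minus the mean of that gene over the non-diabetic saline libraries; rows are 34 subunits by module, Ndufa2 below the filter included, and columns the 10 libraries by group. Colours stop at ±2, past which only Ndufa12 in diabetic saline library 4 lies; the 7 diabetic columns are mostly red, and the 3 non-diabetic columns scatter around 0.

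The first comparison, diabetic saline against non-diabetic saline, asks what the diabetic regimen did to glomeruli. Of the 34 subunits tested, 8 rose (adjusted p under 0.05, limma) and 0 fell, against 3.73% of all 8239 tested genes that rose and 1.81% that fell. Log2 differences were above 0 for 33 of 34 subunits (49.2% of all genes), and their median was 0.72, a 1.65-fold level, against -0.01 over all genes. For 19 subunits all 4 diabetic libraries lay above all 3 non-diabetic ones, an arrangement seen in 8.19% of all genes, and for 0 they lay below (8.34%). The remaining 26 did not pass the threshold. At an unadjusted p under 0.05 there were 26 subunits, the 8 called ones included, against 1556 (18.9%) of all genes.

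Some markers of tubule and glomerular cells moved with this comparison, but not every list did. Of 7 distal convoluted tubule markers, 6 rose, among them Calb1 (calbindin, 4.88-fold) and Pvalb (parvalbumin, 5.15-fold). Pvalb averaged 6.19 normalized counts in non-diabetic saline, under the filter value of 10. The summed level of the 7 markers was 2089 to 3218 in diabetic saline against 533 to 1290 in non-diabetic saline. Podocyte markers fell for 5 of 20, with sums of 4590 to 6469 against 6894 to 9401, and endothelial markers for 3 of 19. Proximal tubule markers fell for 3 of 21 and rose for 0, with overlapping sums of 881 to 2098 and 899 to 3118. Of 5 thick ascending limb markers 0 passed (median log2 difference -0.32), and of 11 collecting duct markers 1 rose (median 0.30). Of 14 mesangial markers 1 rose and 2 fell. When the mean of the distal convoluted tubule markers entered the model as a term, an alternative chosen after seeing the data, 0 subunits passed and their median difference was 0.45. With a term for the glomerular markers 0 passed as well (median 0.56), and with a term for all tubule markers 10 passed (median 0.75). All-gene calls were 130, 160 and 494 in those fits, against 456 without a term. The distal convoluted tubule and podocyte sums did not overlap between these groups. A loss of calls with the distal convoluted tubule or glomerular term therefore cannot tell marker level from group.

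Within the proximal membrane arm, 4 of 8 tested subunits rose, against 3.73% of all genes. Ndufc2, an accessory membrane subunit, had the lowest p of all, with 41.6, 49.1, 51.7 and 46.0 normalized counts in diabetic saline and 21.0, 20.9 and 23.7 in non-diabetic saline. The groups lay well apart, at 2.10-fold (log2 1.07 ± 0.20 SE, adjusted p = 0.00198). Ndufa13, also known as a regulator of cell death, had 64.0, 58.3, 62.0 and 60.2 in diabetic saline and 29.7, 40.8 and 24.9 in non-diabetic saline. Its groups did not overlap either, and the difference was 1.93-fold (log2 0.95 ± 0.20, adjusted p = 0.00547). Both kept their calls in all 20 alternatives that added no marker term.

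Ndufa1, a small single-pass membrane protein, had 70.4, 61.1, 64.6 and 60.2 normalized counts in diabetic saline and 41.5, 33.6 and 34.9 in non-diabetic saline, without overlap. It rose 1.73-fold (adjusted p = 0.0188), but the adjusted p was 0.056 without diabetic saline library 1, 0.0708 without non-diabetic saline library 2 and 0.0588 without non-diabetic saline library 3. Ndufa8, a subunit on the intermembrane-space face, had 36.8, 55.5, 42.2 and 49.6 in diabetic saline and 22.3, 31.7 and 13.7 in non-diabetic saline. Its groups did not overlap, and it rose 2.08-fold (adjusted p = 0.0275). That call depended on single libraries: the adjusted p was 0.15 and 0.0738 without non-diabetic saline libraries 3 and 1, and 0.0697, 0.0549 and 0.0531 without diabetic saline libraries 2, 3 and 4. Ndufa3, another small proximal-arm subunit, had 14.4, 13.9, 23.3 and 12.4 in diabetic saline against 6.81, 6.35 and 7.48 in non-diabetic saline. The 2.10-fold difference, without overlap, missed the threshold (adjusted p = 0.0535, limma). Only its diabetic libraries reached the filter value of 10, so Ndufa3 was tested through the groups where it is high.

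In the N module, 2 of 9 tested subunits rose, against 3.73% of all genes. Ndufv2, a core subunit with an iron-sulphur cluster beside the flavin site, had 50.4, 35.2, 41.3 and 44.3 normalized counts in diabetic saline and 20.4, 26.3 and 26.2 in non-diabetic saline. The lowest diabetic library exceeded the highest non-diabetic one, at 1.73-fold (adjusted p = 0.0266), with adjusted p = 0.126 without non-diabetic saline library 1, 0.0849 without diabetic saline library 1 and 0.0533 without diabetic saline library 3. Ndufa12, an accessory subunit that is a paralog of the assembly factor Ndufaf2, had 37.6, 43.5, 54.3 and 99.1 in diabetic saline and 29.7, 29.0 and 11.2 in non-diabetic saline. The 2 extreme values belong to the libraries with title numbers under 100. The 2.48-fold difference (log2 1.31, adjusted p = 0.015) became a log2 difference of 0.87 without non-diabetic saline library 3 (adjusted p = 0.0986) and of 0.59 without both of those libraries (adjusted p = 0.178).

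The N-module core subunits Ndufv1 and Ndufs1 did not pass. Ndufv1, which binds NADH and the flavin, had 108, 68.5, 101 and 58.4 normalized counts in diabetic saline and 60.1, 61.7 and 52.4 in non-diabetic saline (1.40-fold, adjusted p = 0.238), and diabetic saline library 4 fell within the non-diabetic range. Ndufs1, the largest iron-sulphur subunit, had 62.4, 45.3, 56.8 and 70.8 against 37.8, 46.3 and 33.7 (1.48-fold, adjusted p = 0.103), overlapping through 1 library. Ndufa7, an accessory subunit, had 19.2, 24.1, 28.4 and 30.1 against 19.2, 17.2 and 4.99 (2.00-fold, adjusted p = 0.117). The lowest diabetic value lay just above the highest non-diabetic one. Ndufs4, an accessory subunit whose loss in mice gives a Leigh-like brain disease, differed 1.75-fold (adjusted p = 0.117), Ndufs6 1.65-fold (0.0823), Ndufa6 1.56-fold (0.129) and Ndufv3 1.61-fold (0.352).

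In the Q module, the core subunits Ndufs8, Ndufs7 and Ndufs3 did not pass. Ndufs8, a core subunit with iron-sulphur clusters, had 32.8, 41.6, 40.5 and 26.6 normalized counts in diabetic saline and 26.6, 15.4 and 17.5 in non-diabetic saline (1.76-fold, adjusted p = 0.0612). Diabetic saline library 4 and non-diabetic saline library 1 were level there. Ndufs7, which carries the last iron-sulphur cluster before ubiquinone, had 40.8, 32.4, 28.4 and 35.4 against 18.6, 23.6 and 19.9 (1.62-fold, adjusted p = 0.078), without overlap. Ndufs3, a core subunit without a cluster, had 46.4, 40.7, 20.7 and 24.8 against 22.3, 28.1 and 21.2 (1.31-fold, adjusted p = 0.468). Its groups overlapped, as diabetic saline libraries 3 and 4 lay within or below the non-diabetic range. The accessory subunits Ndufa9 (52.3 ± 7.2 against 35.6 ± 5.5, SD, n = 4 and 3) and Ndufa5 differed 1.45-fold and 1.29-fold (adjusted p = 0.114 and 0.337, limma).

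Of 10 distal-arm subunits, only Ndufb8 rose, against 3.73% of all genes. Its values were 66.4, 96.3, 74.9 and 93.8 normalized counts in diabetic saline and 41.5, 46.3 and 51.1 in non-diabetic saline, with a clear gap between the groups. The difference was 1.76-fold (log2 0.81 ± 0.19, adjusted p = 0.01), with an adjusted p of 0.062 without non-diabetic saline library 1. The other 9, all accessory, differed by 1.29-fold (Ndufb2) to 1.69-fold (Ndufb10 and Ndufb3), with adjusted p from 0.065 for Ndufb10 to 0.481 for Ndufb2. Ndufb2 had 28, 30.5, 22.4 and 24.8 against 16.7, 15.4 and 31.2, and its highest library was non-diabetic. Ndufb11, Ndufb6, Ndufb5, Ndufb4, Ndufb7 and Ndufb9 lay between these extremes.

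The other proximal-arm subunits Ndufa10 and Ndufc1 differed 1.58-fold and 1.65-fold (adjusted p = 0.154 and 0.209). Ndufa11 had 20.8, 10.2, 16.4 and 1.77 in diabetic saline against 8.67, 8.16 and 13.7 in non-diabetic saline (log2 -0.07 ± 0.51, adjusted p = 0.963). Its diabetic saline library 4 value is 1 read, and it is the member with the widest error. Its sign is not settled: the log2 difference was 0.57 without that library, 0.14 without non-diabetic saline library 3, 0.78 without both libraries with title numbers under 100, 0.47 by edgeR, 0.41 by DESeq2 and 0.04 with a pseudocount of 5. Ndufab1, the mitochondrial acyl carrier protein that also serves lipoic acid synthesis, had 18.4, 15.7, 15.5 and 5.31 against 17.3, 8.16 and 3.74 (adjusted p = 0.545). Ndufa2, below the filter, had 6.40, 9.25, 5.17 and 8.85 against 4.95, 5.44 and 7.48.

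**Figure D2:**
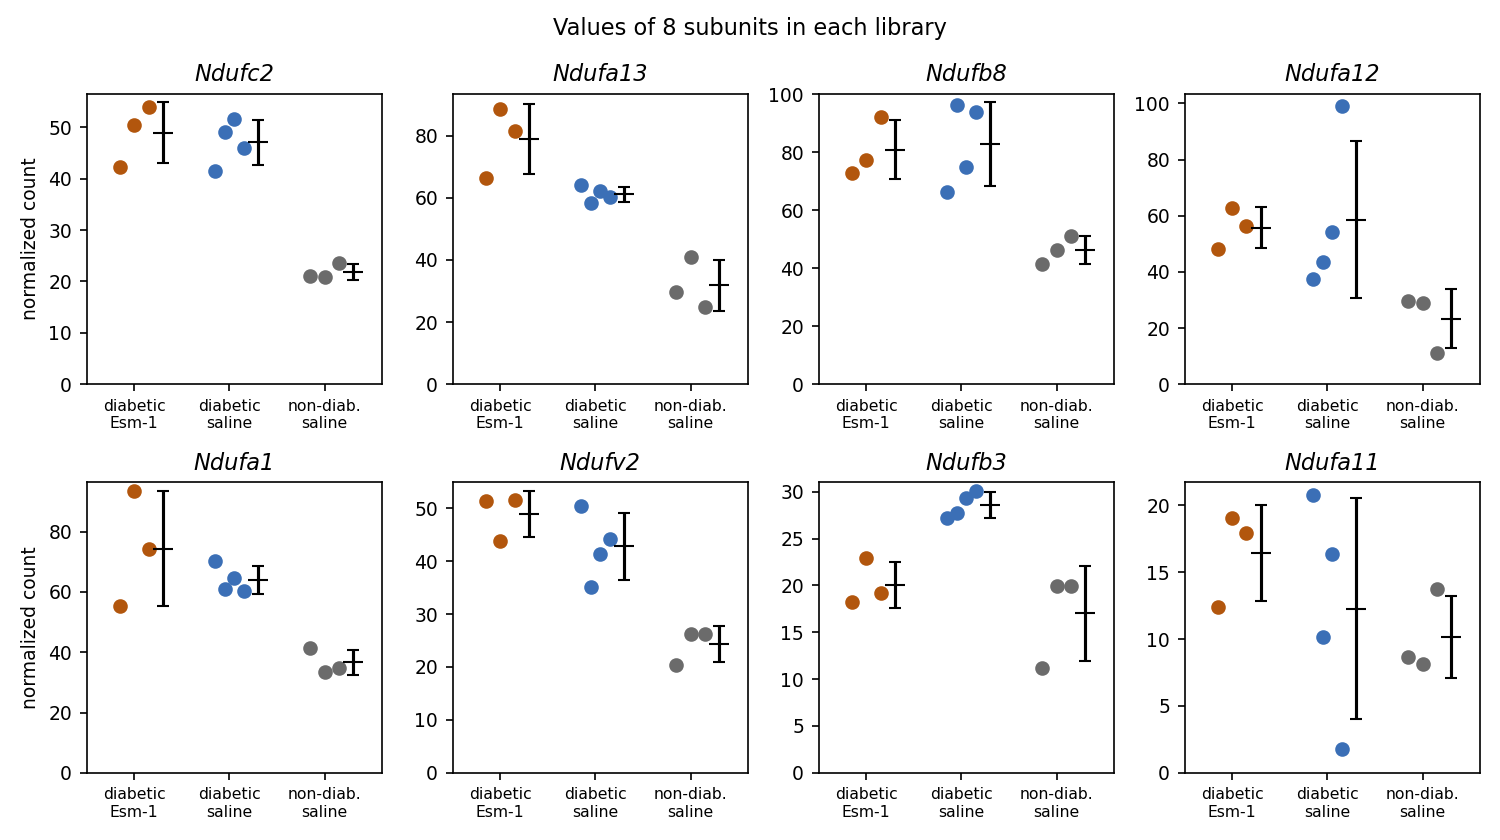
Points are normalized counts in single libraries of diabetic Esm-1, diabetic saline and non-diabetic saline, with the group mean and SD beside them, for 6 subunits that rose in diabetic saline against non-diabetic saline and for Ndufb3 and Ndufa11. In the first 6 panels every diabetic saline point lies above every non-diabetic point; Ndufb3 is highest in diabetic saline, and Ndufa11 overlaps in all groups.

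By module, median log2 differences in diabetic saline against non-diabetic saline were 0.87 in the proximal arm, 0.72 in the N module, 0.69 in the distal arm and 0.62 in the Q module. The 7 catalytic core subunits had a median of 0.70, and 2 of them rose. Differences between modules were not tested, and the median standard error of a single subunit was 0.25.

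Promoter windows show what the strongest of these genes share and do not share. RefSeq windows on GRCm38.p6, from 250 bases before to 50 after the start, were matched by symbol for 31 of 35 subunits, and the authors' alignment used mm9. The 100 bases before the start are printed for the 4 subunits with the lowest p in the first comparison among those with a window, 5′ to 3′ on the gene's strand. Capitals mark the SP1 motif GGGCGG or its reverse complement.
Ndufc2, chr7:97399903-97400002 (+): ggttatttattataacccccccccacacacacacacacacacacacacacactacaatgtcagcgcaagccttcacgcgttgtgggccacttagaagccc
Ndufa13, chr8:69902021-69902120 (-): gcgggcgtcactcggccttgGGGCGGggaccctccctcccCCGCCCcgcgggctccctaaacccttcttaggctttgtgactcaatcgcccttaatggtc
Ndufb8, chr19:44555443-44555542 (-): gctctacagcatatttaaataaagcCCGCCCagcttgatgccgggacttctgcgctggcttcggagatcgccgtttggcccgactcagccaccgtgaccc
Ndufa12, chr10:94198935-94199034 (+): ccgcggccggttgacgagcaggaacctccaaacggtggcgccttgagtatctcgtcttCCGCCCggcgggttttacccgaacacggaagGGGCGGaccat
Ndufc2 holds none of the 5 motifs searched, Ndufa13 and Ndufa12 hold 2 SP1 matches each in the printed stretch, and Ndufb8 holds 1.

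Both strands of the full windows were searched, and overlapping matches of different motifs were counted for each. The YY1 motif AAGATGGC occurred in 7 of 31 subunit windows (22.6%), namely Ndufa3, Ndufa9, Ndufb8, Ndufc1, Ndufs4, Ndufs6 and Ndufs7, against 5.51% of the 6302 tested genes with a window and 3.19% of all 27025 genes. The motif of NRF1, of a known regulator of respiratory genes, occurred in 6 (19.4%, against 11.7% and 5.19%), and the ERR motif AAGGTCA in 2 (6.45%, against 3.57% and 5.38%). The GGGCGG motif was in 15 windows (48.4%, against 73.5% and 38.2%), and the ETS motif CCGGAAGT in 1, that of Ndufs3 (3.23%, against 9.24% and 4.31%). A match is a run of letters, not a measured site.

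The second comparison, diabetic Esm-1 against diabetic saline, asks what injection of the Esm-1 plasmid instead of saline added in diabetes. No subunit passed the threshold: 0 of 34 were called, and 0% of all 8239 genes were called in either direction. At an unadjusted p under 0.05 there were 899 genes (10.9%) and 2 subunits, while edgeR called 0 genes and DESeq2 30 genes, 0 of them subunits. Differences were small and mostly positive, above 0 for 31 of 34 subunits (50.7% of all genes), with a median of 0.20 on the log2 scale or 1.15-fold. That median rests on single libraries: it was 0.38, with 33 of 34 above 0, without diabetic Esm-1 library 1, and 0.16, with 24 of 34 above 0, without diabetic Esm-1 library 3. The upper 95% bound lay below a 2-fold rise for 29 subunits and at or above it for 5, so a doubling of those 5 is not outside the intervals.

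Among the core subunits, Ndufv1 and Ndufs8 differed most. Ndufv1 had 83.3, 136 and 136 normalized counts in diabetic Esm-1 and 108, 68.5, 101 and 58.4 in diabetic saline (1.42-fold, unadjusted p = 0.033 and adjusted p = 0.407 by limma). The lowest diabetic Esm-1 library lay within the diabetic saline range. Ndufs8 had 43.0, 43.9 and 70.6 against 32.8, 41.6, 40.5 and 26.6 (1.45-fold, unadjusted p = 0.0443 and adjusted p = 0.441 by limma). Its groups did not overlap, by a narrow margin, and diabetic Esm-1 library 3 stood highest. The core subunits Ndufv2, Ndufs3, Ndufs7 and Ndufs1 had 1.15-, 1.15-, 1.22- and 1.10-fold levels, with adjusted p of 0.684 to 0.849.

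Some accessory subunits separated the groups without reaching the threshold. Ndufa13 had 66.4, 88.7 and 81.4 normalized counts in diabetic Esm-1 against 64.0, 58.3, 62.0 and 60.2 in diabetic saline (log2 0.35 ± 0.20, adjusted p = 0.542). Ndufa9, a subunit of the Q module at the junction with the membrane arm, had 63.8, 63.9 and 74.2 against 59.2, 52.8, 42.2 and 54.9 (1.29-fold, adjusted p = 0.517). In both, every diabetic Esm-1 library was higher, as in 3 subunits in all and in 3.73% of all genes. Ndufb3, a distal-arm subunit, ran the other way with 18.2, 22.9 and 19.2 against 27.2, 27.8, 29.3 and 30.1 (log2 -0.49 ± 0.26, adjusted p = 0.502). It was the only subunit with every diabetic Esm-1 library lower, an arrangement seen in 5.47% of all genes.

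At the ends of the range, Ndufa11 had 12.4, 19.1 and 18 normalized counts in diabetic Esm-1 against 20.8, 10.2, 16.4 and 1.77 in diabetic saline (log2 0.72 ± 0.51), overlapping widely. Ndufc1, a small proximal-arm subunit, had 27.3, 32.4 and 41.9 against 18.4, 30.5, 28.4 and 14.2 (log2 0.59 ± 0.31, adjusted p = 0.517), overlapping through diabetic Esm-1 library 1. Ndufs4 had 15.6, 23.8 and 21.5 against 26.4, 27.8, 16.4 and 19.5 (log2 -0.13 ± 0.29), and Ndufb8 had 72.9, 77.2 and 92.2 against 66.4, 96.3, 74.9 and 93.8 (log2 -0.03 ± 0.19). Neither separated the groups. Within diabetic Esm-1, library 1 had the lowest value for Ndufv1, Ndufc2, Ndufa1, Ndufa8, Ndufa12, Ndufa13 and Ndufb8, and the lowest subunit sum of that group.

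Cell-type markers did not pass here, although podocyte sums were 3242 to 4499 in diabetic Esm-1 against 4590 to 6469 in diabetic saline, and distal convoluted tubule sums were 1970 to 4697 against 2089 to 3218. All 20 podocyte markers had differences below 0 (median -0.68), and 20 of 21 proximal tubule markers had differences above 0 (median 0.69). With a term for the glomerular markers, the subunits' median was -0.03 and 15 of 34 were above 0. With the term for the distal convoluted tubule markers it was 0.16 and 28 of 34, and with the term for all tubule markers 0.25 and 24 of 34. The mean of the glomerular markers and that of all tubule markers did not overlap between these groups. Shifts of the median with either of those terms therefore cannot tell marker level from group.

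**Figure D3:**
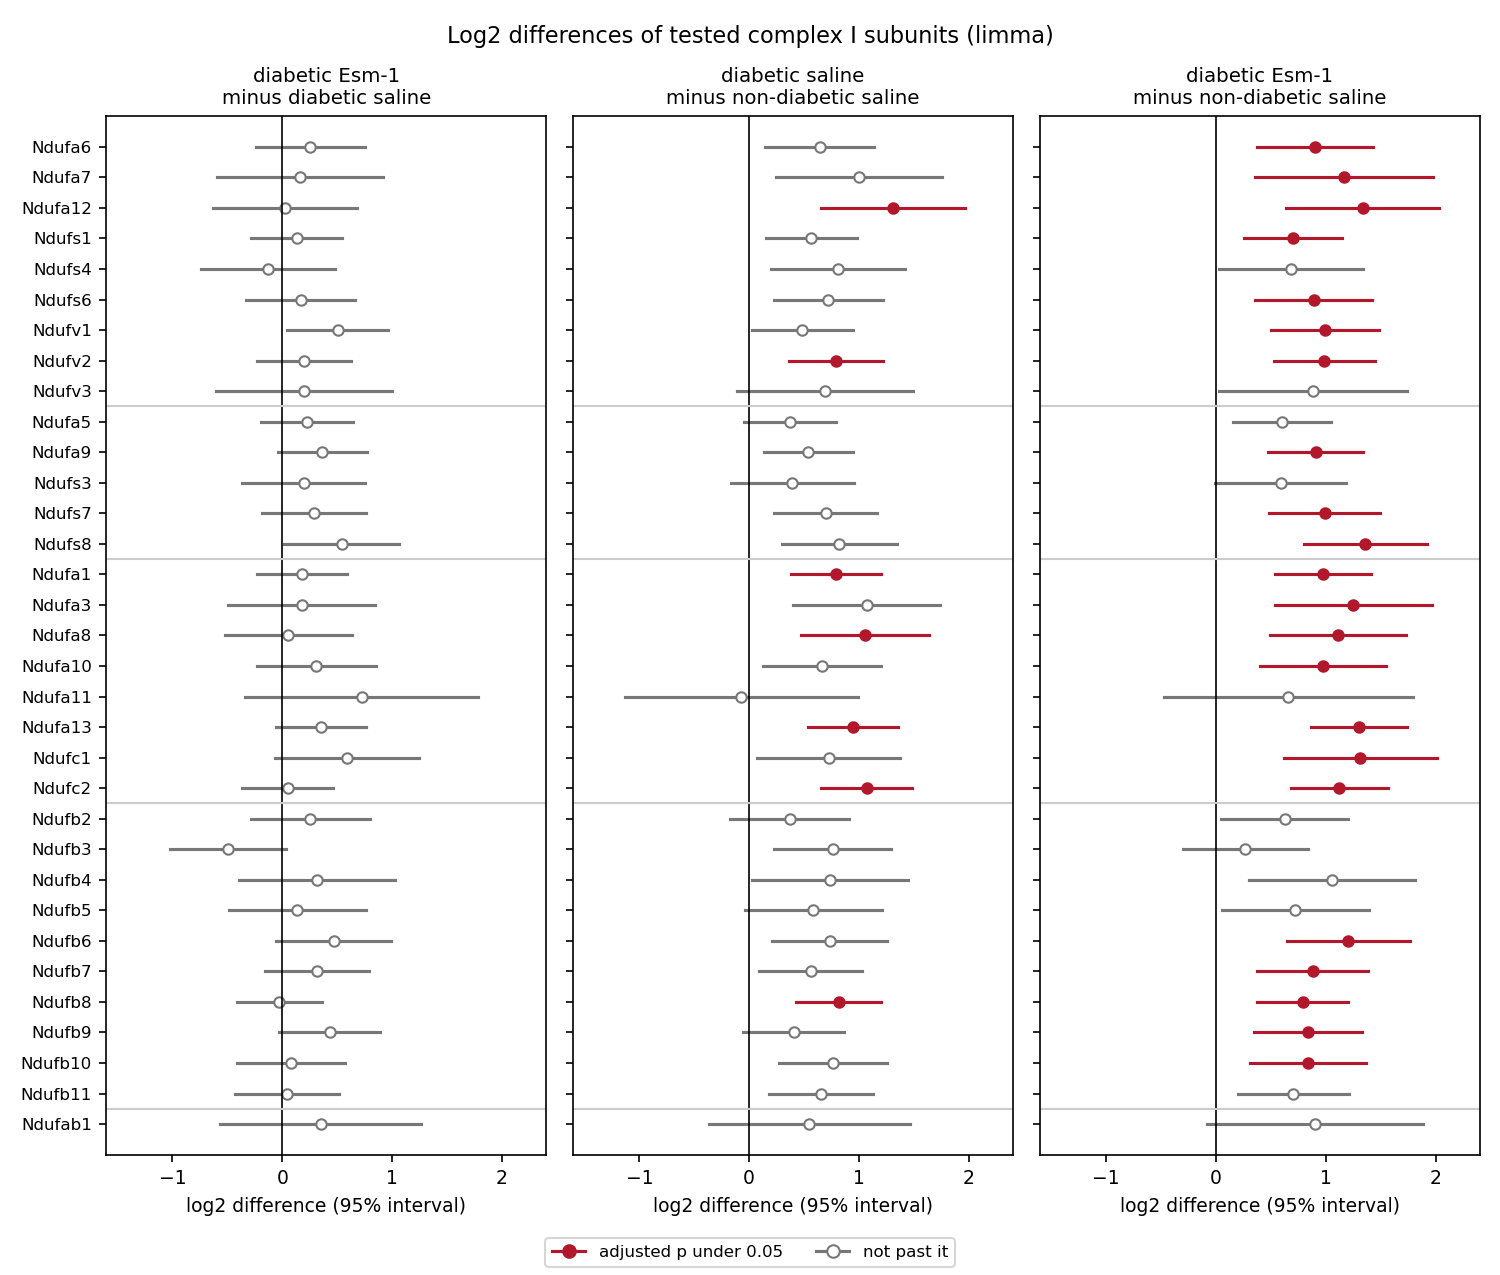
Points are log2 differences of 33 tested subunits, by module from top to bottom, in diabetic Esm-1 minus diabetic saline, diabetic saline minus non-diabetic saline and diabetic Esm-1 minus non-diabetic saline, with bars for 95% intervals. Filled red points passed the threshold and number 0, 7 and 22 in the 3 panels.

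The third comparison, diabetic Esm-1 against non-diabetic saline, combines diabetes, diet and plasmid and shares its libraries with the other comparisons. Of 34 subunits, 23 rose and 0 fell, against 7.19% of all genes that rose and 8.11% that fell. All 34 differences were above 0 (50.7% of all genes), and the median was 0.90, a 1.87-fold level, against 0.01 over all genes. For 23 subunits the diabetic Esm-1 libraries all lay higher (15.4% of all genes), and for 0 they all lay lower (17.4%). The count was lower without diabetic Esm-1 library 2 (11) or library 3 (9) and was 17 to 25 without any other library.

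All 8 subunits called in the first comparison were among these 23. Ndufa13 had the lowest p, with 66.4, 88.7 and 81.4 normalized counts in diabetic Esm-1 and 29.7, 40.8 and 24.9 in non-diabetic saline, a 2.46-fold level without overlap (log2 1.30 ± 0.21, adjusted p = 0.000346). The largest difference was that of Ndufs8, with 43.0, 43.9 and 70.6 in diabetic Esm-1 and 26.6, 15.4 and 17.5 in non-diabetic saline. It rose 2.57-fold (log2 1.36 ± 0.27, adjusted p = 0.00166), and its groups did not overlap. Ndufc2 rose 2.18-fold, Ndufa1 1.97-fold, Ndufv2 1.98-fold and Ndufa9 1.87-fold (adjusted p = 0.00115, 0.00312, 0.00423 and 0.00489). All of these kept their calls in all 20 alternatives that added no marker term, as 7 of the 23 did, and the other 16 lost theirs in at least 1.

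Of the 7 core subunits, 6 rose and Ndufs3 did not (1.5-fold, adjusted p = 0.19). Ndufv1 had 83.3, 136 and 136 normalized counts against 60.1, 61.7 and 52.4 (1.98-fold, adjusted p = 0.00683), with adjusted p = 0.0532 without diabetic Esm-1 library 2 and 0.0551 without library 3. Ndufs7 had 33.2, 52.4 and 41.9 against 18.6, 23.6 and 19.9 (1.98-fold, adjusted p = 0.00817), with 0.0653 without diabetic Esm-1 library 2. Neither pair of groups overlapped. Ndufs1 had 58.0, 70.6 and 63.4 against 37.8, 46.3 and 33.7 (1.62-fold, adjusted p = 0.0297). Its adjusted p was 0.124 and 0.0888 without diabetic Esm-1 libraries 2 and 3, and 0.08 and 0.104 without non-diabetic saline libraries 1 and 3.

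By module, 7 of 8 proximal-arm subunits rose (median log2 difference 1.12), 7 of 9 in the N module (0.90), 4 of 6 in the Q module (0.95) and 5 of 10 in the distal arm (0.81). Over all tested genes 7.19% rose. Ndufb6 led the distal arm, with 42.3, 59.1 and 99.4 normalized counts in diabetic Esm-1 against 32.2, 21.8 and 27.4 in non-diabetic saline. Its diabetic Esm-1 libraries spread widely but stayed above the others, at 2.30-fold (adjusted p = 0.00415, and 0.0507 without diabetic Esm-1 library 3). The remaining called subunits were Ndufa3, Ndufa6, Ndufa7, Ndufa8, Ndufa10, Ndufa12, Ndufb7, Ndufb8, Ndufb9, Ndufb10, Ndufc1 and Ndufs6. Their rises ran from 1.73-fold (Ndufb8) to 2.52-fold (Ndufa12). Groups overlapped for the called Ndufa8 and Ndufb9, while those of the uncalled Ndufa5 and Ndufs3 did not. Ndufa3 passed the filter only through diabetic libraries. The 11 not called were Ndufa5, Ndufa11, Ndufab1, Ndufb2, Ndufb3, Ndufb4, Ndufb5, Ndufb11, Ndufs3, Ndufs4 and Ndufv3, the smallest difference being that of Ndufb3 (1.20-fold, adjusted p = 0.581).

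Some marker lists moved here too, but not every list did. Of 21 proximal tubule markers 2 rose and 1 fell (median log2 difference 0.34). Of 11 collecting duct markers 2 rose (median 0.10), and of 5 thick ascending limb markers 0 passed (median 0.43). All 7 distal convoluted tubule markers rose (Calb1 6.11-fold), 16 of 20 podocyte markers fell (Wt1, the podocyte transcription factor, to 59.8 in diabetic Esm-1 against 179 in non-diabetic saline), and 15 of 19 endothelial and 6 of 14 mesangial markers fell. Podocyte sums were 3242 to 4499 in diabetic Esm-1 and 6894 to 9401 in non-diabetic saline, without overlap. With a term for the glomerular, all tubule or distal convoluted tubule markers, 0, 0 and 1 subunits passed, with medians of 0.50, 1.03 and 0.64. All-gene calls were 34, 262 and 102, against 1260 without a term. Distal convoluted tubule sums did not overlap either, at 1970 to 4697 and 533 to 1290. The mean over all tubule markers did not overlap between these groups either. A loss of calls with any of these terms therefore cannot tell marker level from group.

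**Figure D4:**
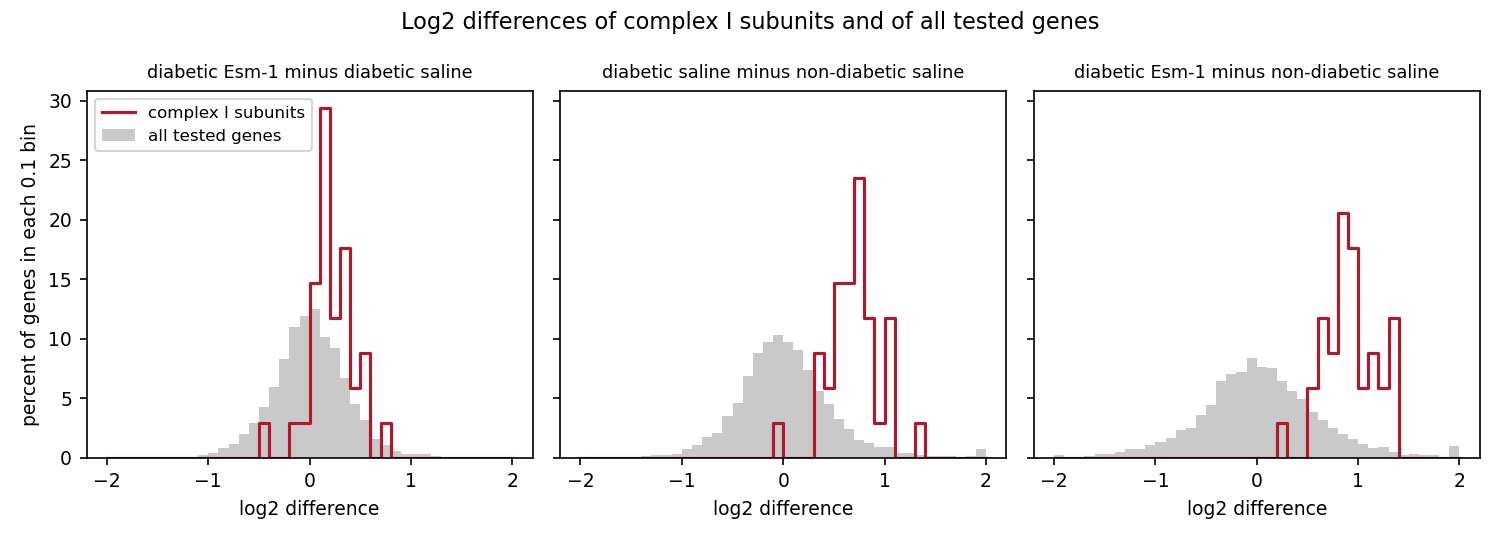
The grey area gives the percentage of all 8239 tested genes, and the red outline that of the 34 subunits, in bins of the log2 difference, in a panel per comparison, with the end bins collecting values past ±2. The subunits sit to the right of the all-gene peak in both comparisons with non-diabetic saline (medians 0.90 and 0.72) and close to it in diabetic Esm-1 against diabetic saline (median 0.20).

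Per kilobase of the principal transcript, the most abundant subunit in non-diabetic glomeruli was Ndufa1 at 87.5 normalized counts per kb, followed by Ndufb8 (68.1) and Ndufb9 (63.0). Ndufa1 ranged from 80.1 to 99.0 there and lay above Ndufb8 (61.0 to 75.2), which overlapped Ndufb9 (52.8 to 79.7). The lowest were Ndufab1 (3.98), Ndufv3 (5.84) and Ndufs4 (7.35), whose ranges overlapped. Ndufa1 also led in diabetic Esm-1 (177 per kb, range 132 to 223) and diabetic saline (153, range 143.7 to 168). Subunit transcripts are short: 31 of the 34 were among the 1970 shortest of 7880 tested genes with a known length, at 362 to 2098 bases. Among those 1970 genes the median log2 difference was 0.13 in diabetic saline against non-diabetic saline, with 6.09% called higher, and 0.18 in diabetic Esm-1 against non-diabetic saline, with 10.96% called higher. Transcript lengths came from the GRCm38 annotation, another build than the authors'.

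The assembly factors, which build the enzyme and are absent from its final form, were among the least abundant members, at 1.13 to 5.53 normalized counts per kb in non-diabetic glomeruli, a range that also holds the subunit Ndufab1 at 3.98. None of the 7 passed the filter. Their summed normalized counts were 31.9, 30.5 and 40.7 in diabetic Esm-1, 36.8, 30.5, 51.7 and 42.5 in diabetic saline and 27.2, 23.6 and 24.9 in non-diabetic saline, so both diabetic groups lay above the non-diabetic one. Ndufaf2, the paralog of Ndufa12, had 5.21, 2.86 and 4.79, then 7.20, 7.40, 5.17 and 5.31, and 3.71, 1.81 and 1.25 in the same order of groups. Its diabetic saline libraries all lay above the non-diabetic ones. With no filter, 0 of 7 passed in any comparison: in diabetic saline against non-diabetic saline 6 of 7 were above 0 (median 0.55), 1 had an unadjusted p under 0.05, and adjusted p ran from 0.195 for Ndufaf2 to 0.992 for Ndufaf5. Ndufaf1, Ndufaf3, Ndufaf4, Ndufaf6 and Ndufaf7 lay between. In diabetic Esm-1 against diabetic saline 1 of 7 was above 0 (median -0.24), and in diabetic Esm-1 against non-diabetic saline 6 of 7 (median 0.35). These values rest on 1 to 15 reads per library. Of 12 assembly factors without the Nduf prefix, 4 were tested and 0 passed in any comparison.

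Ndufa4 had 52.7, 63.9 and 73.0 normalized counts in diabetic Esm-1, 53.6, 34.2, 53.4 and 30.1 in diabetic saline and 22.9, 33.6 and 36.1 in non-diabetic saline. It rose 2.03-fold in diabetic Esm-1 against non-diabetic saline (adjusted p = 0.0094, and 0.0643 without diabetic Esm-1 library 3 or 0.0587 without non-diabetic saline library 1), without overlap. Against diabetic saline it was 1.5-fold (adjusted p = 0.362), with overlap. Ndufa4l2, a hypoxia-responsive relative, stayed below the filter at 7.81 to 8.58, 4.0 to 13.8 and 4.33 to 15.4.

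The other respiratory complexes moved in the same direction. In diabetic saline against non-diabetic saline, 8 of 12 complex IV genes rose (median log2 difference 0.84), 9 of 17 of ATP synthase (0.60), 4 of 9 of complex III (0.58), 1 of 4 of complex II (0.62) and 4 of 16 of the TCA cycle and pyruvate dehydrogenase (0.47), and 0 fell. Over all tested genes 3.73% rose. Cox5b, a complex IV subunit, averaged 160 normalized counts in diabetic saline against 73.4 in non-diabetic saline (2.19-fold, adjusted p = 0.000184), and Atp5g1, a subunit of the ATP synthase ring, rose 2.21-fold. Uqcrb of complex III rose 1.71-fold and Sdha, the flavoprotein of complex II, 1.5-fold. In diabetic Esm-1 against non-diabetic saline the counts were 11 of 12, 11 of 17, 7 of 9, 4 of 4 and 8 of 16, with medians of 1.11, 0.81, 0.90, 0.87 and 0.58. The share over all tested genes there was 7.19%. In diabetic Esm-1 against diabetic saline 0 genes of these lists passed.

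Few ribosomal protein genes passed. Of 73 cytosolic ribosomal protein genes 0 passed in either comparison with non-diabetic saline, with medians of 0.11 for diabetic saline and 0.03 for diabetic Esm-1, and of 41 mitochondrial ribosomal protein genes 0 and 1 (Mrpl12) rose, with medians of 0.25 and 0.34. Of 11 transcriptional regulators of respiration, 0 passed in diabetic saline against non-diabetic saline (median -0.04). In diabetic Esm-1 against non-diabetic saline Yy1 fell, to 45.5 normalized counts in diabetic Esm-1 against 71.5 in non-diabetic saline (log2 -0.65 ± 0.20, adjusted p = 0.0325).

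**Figure D5:**
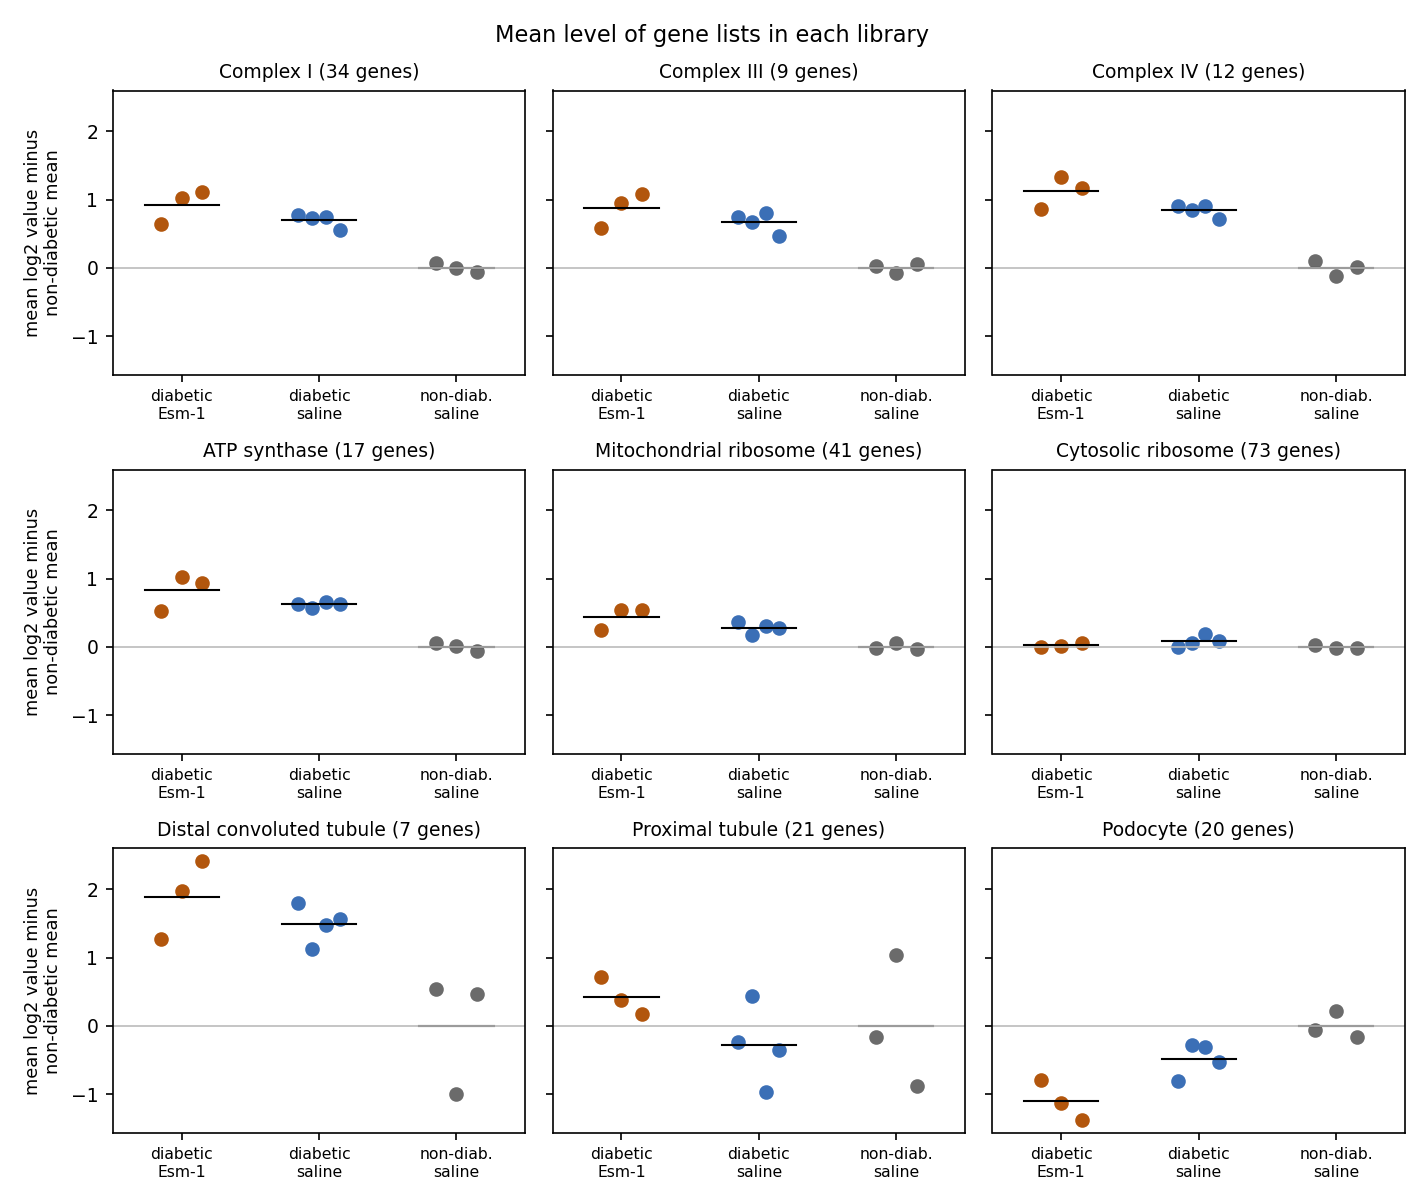
Points give, for each library, the mean log2(normalized count + 1) over the tested genes of a list minus the mean of the non-diabetic saline libraries, with bars for group means. Complexes I, III, IV and ATP synthase lie higher in all 7 diabetic libraries than in the 3 non-diabetic ones. The mitochondrial ribosomal proteins do so too, with smaller differences. The cytosolic ribosomal proteins lie near 0, distal convoluted tubule markers are higher, podocyte markers lower and proximal tubule markers scattered.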

How the data were processed

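Per the submitters' processing notes, trimming used Trimmomatic 0.36, alignment STAR 2.5.3a on mm9, and normalization DESeq2 1.28.1 under R 4.0.2. Signal values as deposited are counts that the authors divided by a size factor per library, in 1 table of 12934 genes by 10 libraries. How reads were counted, with which annotation and whether by strand, is not given in the sources used here, so reads of antisense partners cannot be told apart. Dividing by the value of 1 read gave whole numbers for 100% of 129340 values (tolerance 0.001), and edgeR called 517, 0 and 1294 genes on those reads in diabetic saline against non-diabetic saline, diabetic Esm-1 against diabetic saline and diabetic Esm-1 against non-diabetic saline. No row held fewer than 7 reads in total.

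The main test was limma 3.58.1 (R 4.3.3) with an intensity trend on log2(normalized count + 1), all 10 libraries in 1 fit, over 8239 genes with at least 10 normalized counts in at least 3 libraries. Tests were two-sided, with Benjamini-Hochberg adjustment over all genes tested and a threshold of 0.05. Folds are on the log2(value + 1) scale and understate changes of low genes; SE and 95% intervals come from the fit, and SD is over libraries. The script was checked on simulated data.

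Alternatives were no filter, a pseudocount of 5, totals made equal between libraries with and without the 3 most abundant genes, edgeR 4.0.16 and DESeq2 1.42.0 on the recovered reads, no intensity trend, fits of 2 groups, a term for or removal of the 2 libraries with title numbers under 100, terms for the mean level of cell-type markers, and leaving out each library. The members and gene lists were chosen with earlier results of these data known. Values in every library are given for subunits past the threshold in diabetic saline against non-diabetic saline, for the catalytic core and for up to 3 subunits at each end of the rest in that comparison and in diabetic Esm-1 against diabetic saline; of other lists, up to 2 members with the lowest p. Other genes named, such as Ndufaf2 and Ndufb6, were chosen after their values were seen. Promoter windows are RefSeq's on GRCm38.p6, and transcript lengths are those of GENCODE principal transcripts. Some genes that the naming rule selects are not reported here and stay in every test, sum and count.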

Additional observations from a re-analysis of the deposited data

Results flagged for a closer look

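In diabetic saline, Ndufb6 had 58.4 normalized counts in library 1, against 40.5 to 43.5 in the other 3 libraries. That gap was 0.832 of the whole range, just past Dixon's 95% critical value for 4 values. All 44 members were checked this way in the group of 4, and chance flags about 1 in 20.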

How the results depend on the processing

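Depth limits these results: subunits past the filter rest on 1 to 245 reads per library, and assembly factors on 1 to 15, which limits their precision. No paired analysis was possible because the labels give no replicate numbers shared between groups. In diabetic saline against non-diabetic saline, 8 subunits were called; the count was 5 without the intensity trend, 0 with a term for the glomerular markers and 0 with a term for the distal convoluted tubule markers, the last chosen after seeing the data, and 6 to 9 when single libraries were left out. In diabetic Esm-1 against non-diabetic saline, 23 were called; the count was 0 with the tubule term, 0 with the glomerular term, 1 with the distal convoluted tubule term, and 9 to 25 when single libraries were left out, the lowest without diabetic Esm-1 replicate 3. There, 34 of 34 subunits were above 0 with no term, 29 with the glomerular, 31 with the tubule and 33 with the distal convoluted tubule term; the called Ndufb10 and Ndufb6 reached -0.028 and -0.40 on the log2 scale with the glomerular term. The cause was not tested. In diabetic Esm-1 against diabetic saline the count was 0 in every alternative. With the 2 libraries with title numbers under 100 left out, the counts were 6, 0 and 21 in diabetic saline against non-diabetic saline, diabetic Esm-1 against diabetic saline and diabetic Esm-1 against non-diabetic saline. By edgeR they were 9, 0 and 24, and by DESeq2 7, 0 and 21.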
